A study of Mus musculus with 8 samples.

Results

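The genes described here are the 7 mouse genes of ketone body use and monocarboxylate transport in the heart: Bdh1, Oxct1, Acat1, Slc16a1, Slc16a3, Slc16a7 and Bsg. They were taken by name from a list of pathway genes, drawn up when earlier results of these data were known, and all 7 were found among the 55471 genes in the files. All 7 also passed the filter on low counts, which 15084 genes passed. RNA was sequenced from a piece of heart of 4 WT and 4 TAZG197V mice (14 weeks old per the study, no treatment). TAZG197V mice carry a glycine-to-valine exchange in Tafazzin, which remodels the mitochondrial lipid cardiolipin. The exchange was introduced with CRISPR/Cas9 into C57BL/6N zygotes, carriers were crossed with C57BL6/J, and the TAZG197V animals of the study were males with 1 X-linked copy of the gene, the mutant one. It is present in every cell of the animal from conception on, and the bulk tissue mixes all cell types of the heart. The study calls replicates given with an n biological, but its legends for the heart transcripts give no n. That each library came from a separate mouse is assumed here.

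Ketone bodies are made in the liver and burned by heart, muscle and brain. In heart mitochondria, β-hydroxybutyrate is oxidised to acetoacetate by BDH1, acetoacetate receives coenzyme A from succinyl-CoA through OXCT1, and the thiolase ACAT1 splits acetoacetyl-CoA into acetyl-CoA for the citric acid cycle. Ketone bodies, lactate and pyruvate cross the plasma membrane through proton-coupled monocarboxylate transporters, of which MCT1 (Slc16a1), MCT2 (Slc16a7) and MCT4 (Slc16a3) are included here, and basigin (Bsg) is the membrane chaperone that carries MCT1 and MCT4 to the cell surface.

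Of the 7 genes, Bdh1 and Slc16a7 were higher in TAZG197V hearts, Acat1 was lower, and Oxct1, Slc16a1, Slc16a3 and Bsg did not pass the test. A gene was called when the edgeR adjusted p was under 0.05, the log2 fold change exceeded 0.20 in size and scaled counts averaged 50 or more. Of all 15084 genes tested, 33.5% were called by this rule, 18.5% higher and 15.1% lower. Against that background, 3 of 7 called genes is a share near that of all genes, and nothing particular to this group is read from it. The Bdh1 call held in only 9 of 18 alternatives (below), that of Acat1 in 17 and that of Slc16a7 in all 18. WT and TAZG197V libraries did not overlap at all in 2 of the 7 genes, Acat1 and Slc16a7, and in 33.2% of all genes tested. The median log2 fold change was 0.04 over the 7 genes and -0.01 over all genes tested.

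Total counts per library ranged from 23055689 to 36301031, and mitochondrially encoded genes took 21.6 to 24.6% of them. Levels are given as CPM, counts scaled to the size of the library with TMM factors. WT 4 stood apart, with 5% of its counts from haemoglobin genes against at most 0.096% in any other library. Both number 4 libraries held brain markers, summing to 83.1 CPM in WT 4 and 213 in TAZG197V 4, against 3.18 to 5.38 in the other 6. All 6 cardiomyocyte markers were present in every library, and their summed level was lower in TAZG197V (45493 to 49684 CPM) than in WT (54369.9 to 60976 CPM), with 3 of the 6 called lower. The transcript of the edited gene, Taz, was at 58.7 to 63.8 CPM in WT and 44.3 to 50.4 CPM in TAZG197V (log2 fold change -0.37, edgeR adjusted p = 0.00124).

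**Figure D1:**
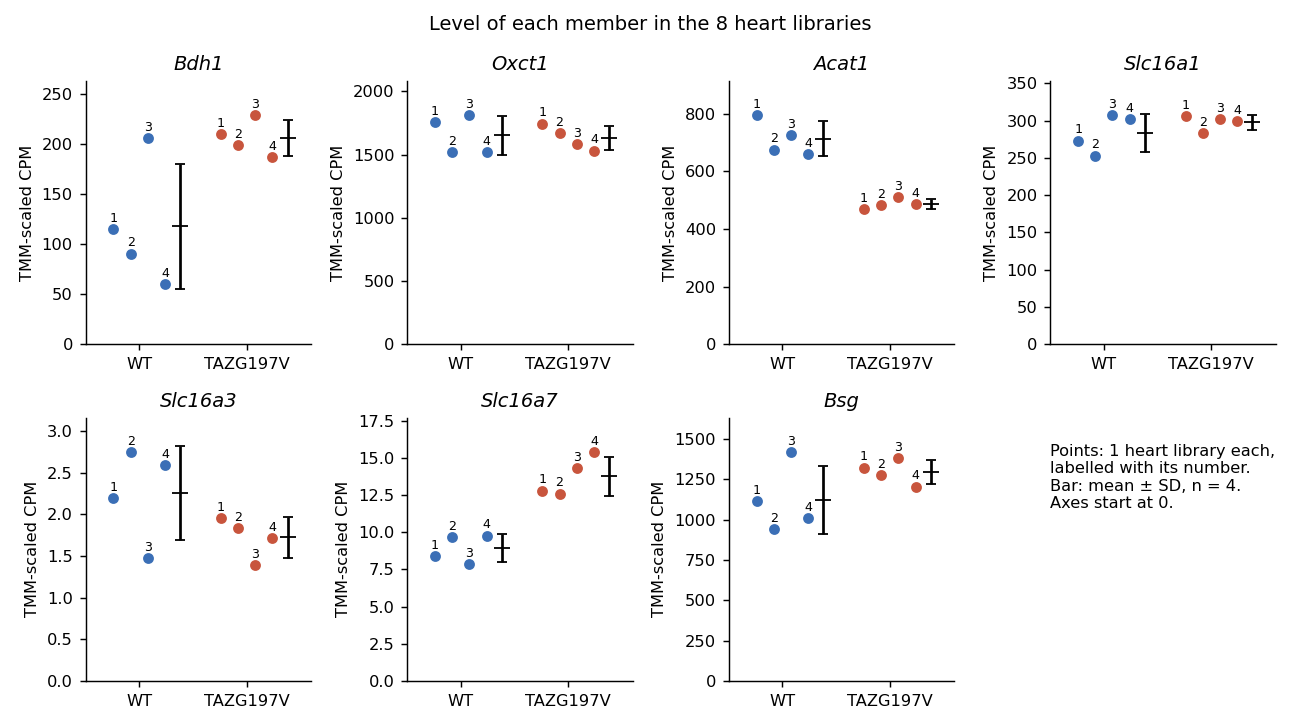
Level of each of the 7 genes in TMM-scaled CPM (y axes, from 0) in the 4 WT (blue) and 4 TAZG197V (red) heart libraries, numbered by replicate, with mean ± SD beside each group. Acat1 and Slc16a7 show no overlap between the genotypes, while Bdh1 in WT 3 (206 CPM) lies among the 4 TAZG197V values (187 to 229 CPM).

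The 3 enzymes of ketone use did not move together. Bdh1 was higher by a log2 fold change of 0.86, Oxct1 differed by less than the spread between mice, and Acat1 was lower, at -0.55. In bulk tissue, fewer cells of a type and less RNA per cell cannot be told apart, and this holds for every difference given here.

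Bdh1 (ENSMUSG00000046598, chromosome 16, 31422280 to 31458901, plus strand, GRCm38) encodes β-hydroxybutyrate dehydrogenase, the first enzyme of the route. Its promoter window from RefSeq (GRCm38.p6, plus strand, chr16:31422047-31422346, 250 bases before to 50 after the start) is shown because Bdh1 was the only called gene with an entry there, beside the window of Oxct1 (chr15:4026178-4026477, plus strand), the next enzyme of the route, and that of Slc16a1 (chr3:104638414-104638713, plus strand), the main transporter. Capitals mark ACGTG, the core of the hypoxia response element, on either strand, so CACGT is the same core read from the other strand and CACGTG holds it on both.
Bdh1: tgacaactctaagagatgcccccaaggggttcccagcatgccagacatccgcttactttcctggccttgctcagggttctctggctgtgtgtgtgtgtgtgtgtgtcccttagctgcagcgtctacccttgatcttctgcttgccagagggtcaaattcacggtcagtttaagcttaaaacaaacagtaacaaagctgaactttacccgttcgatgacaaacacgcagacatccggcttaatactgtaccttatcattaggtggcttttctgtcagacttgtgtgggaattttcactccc
Oxct1: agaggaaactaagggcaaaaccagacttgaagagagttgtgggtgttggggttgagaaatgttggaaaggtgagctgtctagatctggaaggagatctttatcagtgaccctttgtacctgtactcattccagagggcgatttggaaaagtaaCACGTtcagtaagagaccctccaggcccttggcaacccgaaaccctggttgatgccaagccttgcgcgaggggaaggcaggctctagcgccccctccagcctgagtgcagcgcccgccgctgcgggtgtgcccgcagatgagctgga
Slc16a1: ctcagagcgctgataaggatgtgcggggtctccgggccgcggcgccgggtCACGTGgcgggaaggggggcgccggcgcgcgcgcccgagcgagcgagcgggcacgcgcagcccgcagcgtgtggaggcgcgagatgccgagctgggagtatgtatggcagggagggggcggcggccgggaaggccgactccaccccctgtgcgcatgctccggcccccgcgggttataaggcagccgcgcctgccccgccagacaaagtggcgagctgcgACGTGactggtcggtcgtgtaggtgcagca
The 3 windows differed in composition. The Bdh1 window had 48.3% G and C and 7 CpG sites, against 55.3% and 11 for Oxct1 and 73.7% and 42 for Slc16a1, while the medians over 32851 promoters were 52.7% and 7.00. ACGTG was counted 0 times in the Bdh1 window, 1 time in that of Oxct1 and 3 times in that of Slc16a1, and 19.6% of all promoters hold it at least once. A second RefSeq start of Bdh1 (chr16:31428503-31428802) held none either, and the Slc16a3 window (chr11:120948817-120949116) held 2. The sites of the estrogen-related receptor (TGACCTTG, in 1.56% of promoters), ATF4 (TGATGNAA, 3.97%) and PPAR (AGGTCA repeated 1 base apart, 0.0396%) had no match in any of these 5 windows on either strand. RefSeq windows were matched for 4 of the 7 genes, and Acat1, Slc16a7 and Bsg had no entry.

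Bdh1 was at 115, 90.6, 206 and 59.8 CPM in WT 1 to WT 4 and at 210.2, 199, 229 and 187 CPM in TAZG197V 1 to 4. The 4 TAZG197V hearts were alike and high, whereas the WT hearts were spread widely, and WT 3 lay above the lowest TAZG197V heart, so the groups overlapped. The coefficient of variation was 53.5% in WT, the widest of the 7 genes, and 8.53% in TAZG197V. The log2 fold change was 0.86 ± 0.29 (SE; 95% interval 0.21 to 1.52), a fold of 1.82, with an edgeR adjusted p of 0.0433. Within sequencing lanes, each with 2 libraries per genotype, the log2 ratio of mean CPM was 0.99 in lane 7 and 0.64 in lane 8.

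The Bdh1 call rested on the libraries and covariates included. It was lost with lane as a covariate (0.82, edgeR adjusted p = 0.0944) and without surrogate variables (0.81, edgeR adjusted p = 0.0858). Leaving out 1 library at a time gave log2 fold changes from 0.62 (without WT 4) to 1.25 (without WT 3), and the gene was called in 1 of these 8 fits, the one without WT 3, with edgeR adjusted p-values from 0.00146 to 0.115. Without both number 4 libraries it was 0.74 with an edgeR adjusted p of 0.000605. The order of the WT hearts for Bdh1 ran from WT 3 through WT 1 and WT 2 to WT 4. Oxct1 had the same order, though only by 1522 CPM in WT 2 against 1521 in WT 4. Of the marker sums, none had it but that of skeletal muscle, at 2121, 2018, 1601 and 1301 CPM in that order. Of those markers, the skeletal fast myosins Myh1 and Myh4 were at most 0.155 CPM in any library, and the sum came from Acta1 and Ckm, which the heart also expresses. In TAZG197V the sum was at 2026 to 2708 CPM, overlapping WT only through WT 3, and 1 of the 4 markers was called higher, with Acta1 at 92.4 to 329.5 CPM in WT and 412 to 1103 CPM in TAZG197V. Ckm overlapped, at 1208 to 1791 CPM in WT and 1323 to 1614 CPM in TAZG197V. The order of the sum in WT was that of Ckm, whereas Acta1 stood higher in WT 2 (305 CPM) than in WT 1 (298 CPM). The part of the Acta1 rise in the Bdh1 difference was not tested. The haemoglobin-rich WT 4 was the lowest of the 8 hearts in Bdh1, and the part of its blood content in that value was not tested. Without a stated strand setting, reads of Bdh1 and of its antisense neighbour Gm15743, which covers 13.7% of Bdh1 exon bases, may not be fully separated, but Gm15743 had at most 43 counts in a library against 1340 to 7373 for Bdh1.

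Oxct1 (ENSMUSG00000022186, chromosome 15, 4026383 to 4155344, plus strand), the CoA transferase that is low in liver and commits acetoacetate to oxidation, was the most abundant of the 3 enzymes. It was at 1759, 1522, 1809.9 and 1521 CPM in WT 1 to 4 and at 1744, 1672, 1584 and 1531 CPM in TAZG197V 1 to 4. All TAZG197V values lay inside the WT range. Its log2 fold change was -0.03 ± 0.08 (SE) with an edgeR adjusted p of 0.806, and its 95% interval of -0.21 to 0.15 corresponds to folds of 0.867 to 1.11. An antisense gene, BC037032, covers 12.6% of Oxct1 exon bases and had 78 to 249 counts, against at least 34068 for Oxct1.

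Acat1 (ENSMUSG00000032047, chromosome 9, 53580522 to 53610382, minus strand), the mitochondrial thiolase that completes ketone use and also acts in isoleucine breakdown, was lower in every TAZG197V heart. It was at 795, 676, 726 and 660.0 CPM in WT 1 to 4 and at 469, 484, 512 and 487 CPM in TAZG197V 1 to 4. The lowest WT heart lay above the highest TAZG197V heart, and the coefficient of variation was 8.49% in WT and 3.67% in TAZG197V. The log2 fold change was -0.55 ± 0.08 (SE; 95% interval -0.73 to -0.37), a fold of 0.682, with an edgeR adjusted p of 0.000972. It ranged from -0.58 to -0.50 when 1 library at a time was left out and was -0.63 in lane 7 and -0.47 in lane 8. The summed cardiomyocyte markers also lay lower in TAZG197V with no overlap (above). So did the summed fibroblast markers, at 751 to 1252 CPM in WT and 503 to 697 CPM in TAZG197V with 3 of 5 called lower, while the endothelial sums overlapped, at 698 to 972 and 575 to 709.6 CPM, with 2 of 5 called lower. The part of these cell types in the fall of Acat1 was not tested.

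Because Bdh1 and Acat1 moved in opposite directions while Oxct1 did not pass the test, the ratios between the enzymes differed by genotype. Per kb of exon, Bdh1 stood at 0.0662 ± 0.0301 of Oxct1 in WT and at 0.120 ± 0.0113 in the mutant hearts (mean ± SD over 4 hearts). Acat1 stood at 0.426 ± 0.0220 of Oxct1 in WT and 0.295 ± 0.0252 in TAZG197V. The Bdh1 to Acat1 ratio was 0.140, 0.129, 0.275 and 0.0876 in WT 1 to 4 and 0.434, 0.398, 0.432 and 0.371 in TAZG197V 1 to 4. For this ratio even WT 3 lay below all 4 TAZG197V hearts, in contrast to Bdh1 alone. The same held, narrowly, for Bdh1 to Oxct1, at 0.108 in WT 3 and 0.113 to 0.137 in TAZG197V. The numerators and denominators of these ratios are the values already described, and the ratios received no test.

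**Figure D2:**
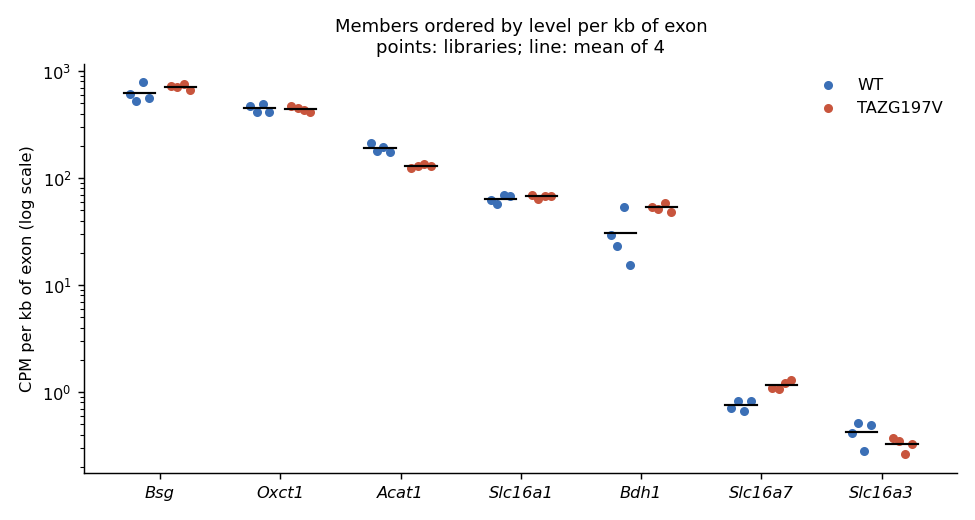
CPM per kb of exon (y axis, log scale) of the 7 genes in order of their level, with 1 point per WT (blue) or TAZG197V (red) library and a line at the mean of 4. The order from Bsg (618 in WT, 715 in TAZG197V) down to Slc16a3 (0.424 and 0.325) was the same in both genotypes.

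On a scale per kb of exon, the order of the genes was the same in both genotypes. The length used is that of all annotated exons joined, not of the transcripts made in heart, and the order depends on it. In plain CPM, Oxct1 (mean 1653 in WT and 1633 in TAZG197V) stood above Bsg (1122 and 1297). In WT, Bsg was at 618 ± 117 CPM per kb, Oxct1 at 447 ± 41.4, Acat1 at 190.0 ± 16.1, Slc16a1 at 64.1 ± 5.70, Bdh1 at 30.3 ± 16.2, Slc16a7 at 0.756 ± 0.0796 and Slc16a3 at 0.424 ± 0.107 (SD, n = 4). In TAZG197V they were at 715 ± 40.9, 441 ± 25.5, 129.8 ± 4.76, 67.3 ± 2.29, 53.0 ± 4.53, 1.16 ± 0.110 and 0.325 ± 0.0463 CPM per kb in the same order. No neighbours in this order overlapped in their ranges in either genotype. The dehydrogenase Bdh1 was thus the least abundant of the 3 ketone enzymes in both genotypes. Slc16a1 stood just above it, with a lowest value of 57.2 against a highest Bdh1 value of 53.0 CPM per kb in WT and of 64.0 against 58.8 in TAZG197V.

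Among the transporters, Slc16a7 was the only one called, and it was higher in TAZG197V. Slc16a1, the transporter that heart muscle mostly uses, did not differ beyond the spread between mice. Slc16a3, with a mean scaled count of 58.3, was just above the minimum of 50 and was not called because of its edgeR adjusted p of 0.278.

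Slc16a1 (ENSMUSG00000032902, chromosome 3, 104638668 to 104658462, plus strand) encodes MCT1, which carries lactate, pyruvate and ketone bodies in either direction along the proton gradient. It was at 273, 253, 307 and 302 CPM in WT 1 to 4 and at 306, 283, 302 and 299 CPM in TAZG197V 1 to 4. All TAZG197V values lay inside the WT range. For MCT1 the log2 fold change was 0.04 ± 0.06 (SE) with an edgeR adjusted p of 0.591, and the 95% interval of -0.10 to 0.18 leaves folds of 0.936 to 1.14.

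Slc16a7 (ENSMUSG00000020102, chromosome 10, 125219270 to 125389465, minus strand) encodes MCT2, the monocarboxylate transporter with the highest affinity for pyruvate and lactate among those described here, best known from neurons and testis. It was at 8.42, 9.70, 7.88 and 9.78 CPM in WT 1 to 4 and at 12.8, 12.6, 14.3 and 15.4 CPM in TAZG197V 1 to 4, from 203 to 468 counts per library. Every TAZG197V heart lay above every WT heart. The log2 fold change was 0.64 ± 0.09 (SE; 95% interval 0.44 to 0.84), a fold of 1.56, with an edgeR adjusted p of 0.000899. It was 0.49 in lane 7 and 0.75 in lane 8. The number 4 library was the highest of its genotype, and these libraries also held brain markers (above). Without both of them the log2 fold change was 0.61 with an edgeR adjusted p of 0.00174.

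Slc16a3 (ENSMUSG00000025161, chromosome 11, 120948480 to 120960868, plus strand) encodes MCT4, the lactate exporter of glycolytic cells. With 38 to 100 counts per library it was at 2.20, 2.75, 1.48 and 2.59 CPM in WT 1 to 4 and at 1.96, 1.84, 1.39 and 1.72 CPM in TAZG197V 1 to 4. The groups overlapped through WT 3. Its log2 fold change was -0.32 ± 0.22 (SE) with an edgeR adjusted p of 0.278, and the 95% interval spans -0.83 to 0.18, so a fall to a fold of 0.564 or a rise to 1.14 could not be told from no difference. Leaving out 1 library moved it from -0.51 (without WT 3) to -0.20 (without TAZG197V 3), with edgeR adjusted p-values of 0.0971 to 0.549.

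Slc16a1 supplied nearly all of the 3 transporter transcripts. Per kb of exon its share of their sum was 98.2% ± 0.387 in WT and 97.8% ± 0.127 in the mutant hearts (SD over 4 hearts). Slc16a7 made up 1.17% ± 0.187 in WT and 1.69% ± 0.149 in TAZG197V, and Slc16a3 0.659% ± 0.201 and 0.473% ± 0.0711. The rise of Slc16a7 therefore took place in a transporter that held at most 1.88% of the sum per kb in any library. In plain CPM its part was larger, at 15.4 beside 299 for Slc16a1 in TAZG197V 4.

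Bsg (ENSMUSG00000023175, chromosome 10, 79704491 to 79711969, plus strand), the chaperone of MCT1 and MCT4, was the most abundant of the 7 genes per kb of exon. It was at 1116, 940.3, 1419.9 and 1009.9 CPM in WT 1 to 4 and at 1324, 1278, 1382 and 1206 CPM in TAZG197V 1 to 4. As for Bdh1, WT 3 was the highest of the WT hearts, and it lay above all 4 TAZG197V hearts, while the other WT hearts lay below all 4. The log2 fold change was 0.19 ± 0.10 (SE; 95% interval -0.04 to 0.42) with an edgeR adjusted p of 0.177. Without WT 3 it was 0.31 with an edgeR adjusted p of 0.0212, and without both number 4 libraries 0.23 with 0.0274, so the gene passed in these fits. WT 3 also had the highest summed endothelial markers of all libraries (972 CPM against 575 to 712), and basigin is abundant in endothelium. The other WT hearts did not keep this order, as WT 2 was next in endothelial markers (712 CPM) and lowest in Bsg. In TAZG197V the endothelial sums were at 575 to 709.6 CPM. The part of these cells in the Bsg level was not tested.

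**Figure D3:**
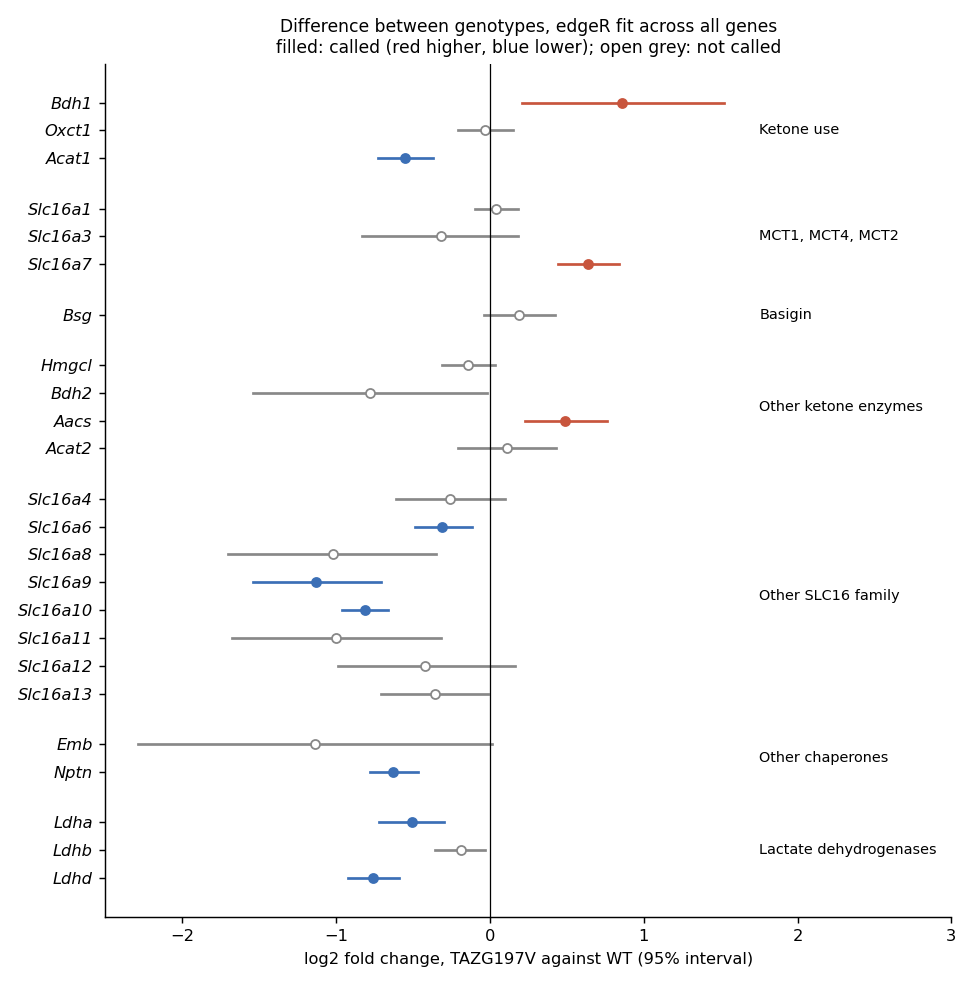
Log2 fold change of TAZG197V against WT (x axis) with its 95% interval for the 7 genes and the 17 tested genes of related lists, filled red where called higher, filled blue where called lower and open grey where not called. Bdh1 (0.86), Slc16a7 (0.64) and Aacs (0.49) are the called rises, and all 8 tested further Slc16 genes lie below 0.

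To place the 7 genes among their relatives, 26 genes of related lists were counted, of which 17 were tested and 7 called, which is read against the 33.5% called among all genes, and nothing particular to these lists is drawn from it. Of 8 other ketone enzymes 4 were tested, 1 was called higher and 0 lower, with a median log2 fold change of -0.01. The one called was Aacs, the cytosolic acetoacetyl-CoA synthetase that feeds acetoacetate into lipid synthesis, at 3.73 to 8.04 CPM in WT and 6.07 to 12.4 CPM in TAZG197V (log2 fold change 0.49 ± 0.12, SE, edgeR adjusted p = 0.0112). Its highest value in each genotype came from the number 4 library, which also held the brain markers, and their part in the Aacs level was not tested. Without TAZG197V 4 the log2 fold change of Aacs was 0.41 and was not called (edgeR adjusted p = 0.0587), nor was it without surrogate variables or with lane as a covariate. The succinyl-CoA transferases of testis, Oxct2a and Oxct2b, had 0 counts in all 8 libraries.

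Of 10 further genes of the Slc16 family 8 were tested, 3 were called lower and 5 did not pass, where 15.1% of all genes tested were called lower. The log2 fold changes of all 8 tested genes were below 0, with a median of -0.61 against -0.01 over all genes tested. Among the 8, Slc16a12 turned to 0.02 without both number 4 libraries. In that fit Slc16a4 moved from -0.26 to -0.09 and Slc16a13 from -0.36 to -0.21, and only Slc16a8 moved further from 0, to -1.17. Slc16a10, a transporter of aromatic amino acids, was at 22.9 to 33.6 CPM in WT and 16.0 to 17.7 CPM in TAZG197V (-0.81 ± 0.07, SE, edgeR adjusted p = 7.74e-05). Slc16a9 was at 3.38 to 4.78 CPM in WT and 1.67 to 2.32 CPM in TAZG197V (-1.13 ± 0.18, SE, edgeR adjusted p = 0.00184). For both of these genes the genotypes did not overlap. Slc16a9 shares 23.5% of its exon bases with the annotated genes Gm7097 and Gm9877, so its counts are less certain.

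Slc16a6 was called lower (-0.31 ± 0.08, SE, edgeR adjusted p = 0.0189), with overlapping groups of 10.6 to 13.3 CPM in WT and 9.39 to 10.8 CPM in TAZG197V. The call did not hold without surrogate variables, with 1 of them, with lane as a covariate, with the replicate number as a block (edgeR adjusted p = 0.110), without both number 4 libraries (edgeR adjusted p = 0.138), or without WT 3, WT 4 or TAZG197V 4 (edgeR adjusted p = 0.0567 to 0.143 in those leaving out 1 library). It also shares 23.5% of its exon bases with other genes, Amz2 and Arsg among them, so part of its reads may be assigned elsewhere.

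Among the lactate dehydrogenases, which make and use the lactate that MCT1 carries, 2 of 3 tested genes were called lower, beside 15.1% of all genes tested, and the median was -0.51 against -0.01. Ldha, the subunit prevalent in glycolytic muscle, was at 447, 394, 438 and 409 CPM in WT 1 to 4 and at 257, 296, 328 and 312 CPM in TAZG197V 1 to 4, with no overlap (-0.51 ± 0.09, SE, edgeR adjusted p = 0.00299). Ldhb, the subunit prevalent in heart, was at 908 to 1093 CPM in WT and 783 to 965 CPM in TAZG197V, and its log2 fold change of -0.19 ± 0.07 (SE) did not pass (edgeR adjusted p = 0.0635), though it did with DESeq2 (adjusted p = 0.0204). Ldhd, the mitochondrial D-lactate dehydrogenase, was called lower (-0.76 ± 0.07, SE, edgeR adjusted p = 0.000140). Ldhd and Znrf1 overlap over 42.2% of the Ldhd exon bases, so their reads may not be fully separated. Of the other chaperones and the sodium-coupled transporters 2 of 4 were tested. Nptn, a basigin relative, was called lower at 91.1 to 126 CPM in WT and 63.3 to 79.9 CPM in TAZG197V (-0.63 ± 0.07, SE, edgeR adjusted p = 0.000255), whereas Emb, the chaperone of MCT2, was not called (-1.14 ± 0.50, SE, edgeR adjusted p = 0.105). Emb was at 1.01 to 5.85 CPM in WT, highest in WT 4, and overlapped with TAZG197V, at 0.836 to 1.36 CPM. Its log2 fold change was -0.65 without both number 4 libraries, and it was called in 1 alternative, DESeq2 (adjusted p = 0.0385).

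**Figure D4:**
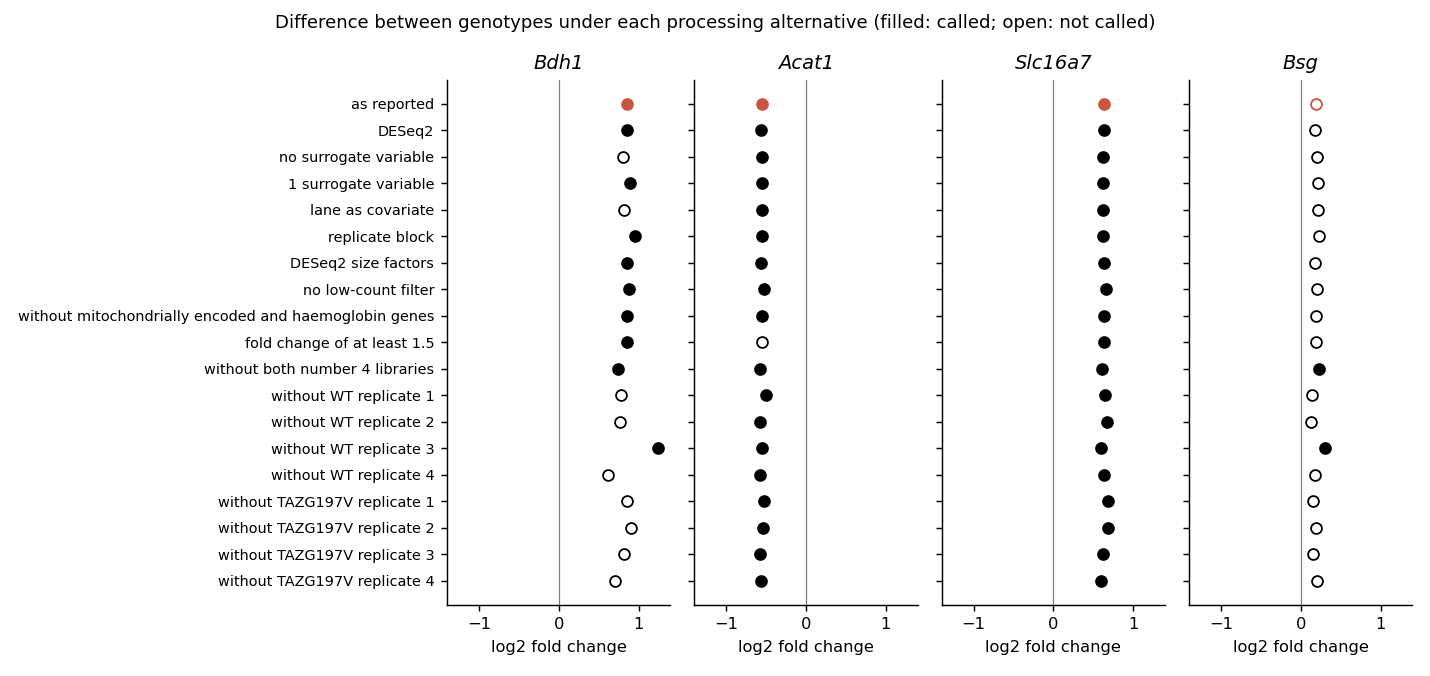
Log2 fold change of TAZG197V against WT (x axes) for Bdh1, Acat1, Slc16a7 and Bsg as reported (red) and under 18 alternatives (black), filled where the gene was called and open where it was not. Slc16a7 was called in all 18 alternatives, Acat1 in 17, Bdh1 in 9 and Bsg in 2.

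The called genes differed in how they held up under other processing. Slc16a7 was called in all 18 alternatives, with log2 fold changes of 0.60 to 0.68, and Acat1 in 17. Acat1 missed the call when a fold change of at least 1.5 was asked for, which 12.2% of all genes tested reached with the adjusted p, and Bdh1 and Slc16a7 were among them. Bdh1 was called in 9 of 18 alternatives and Bsg in 2, while Oxct1, Slc16a1 and Slc16a3 were called in 0.

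The genes whose pattern over the 8 libraries was nearest to each called member were found by the root-mean-square difference of log2 CPM, each gene centred on its own mean, among 8543 genes with a mean of at least 10 CPM. Nearest to Acat1 were Eif4e, the cap-binding translation initiation factor, and Asb14, each at a difference of 0.05. Nearest to Slc16a7 were Atp9a at 0.07 and Crim1 at 0.08. No gene followed Bdh1 as closely, the nearest being Cdv3 at 0.29 and Tnfrsf12a, the receptor of the cytokine TWEAK, at 0.30. Tnfrsf12a was at 35.6, 47.3, 89.2 and 16.3 CPM in WT 1 to 4 and 69.3 to 82.4 CPM in TAZG197V. Like Bdh1 it was high in WT 3 and low in WT 4, but it was picked for that likeness. It did not pass the test (log2 fold change 0.83, edgeR adjusted p = 0.134).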

How the data were processed

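RNA was prepared from pieces of 4 WT and 4 TAZG197V mouse hearts and sequenced as single-end reads. Per the submitters' processing notes, the authors used bcl2fastq 2.20.0, FastQC 0.11.9, STAR 2.7.3a, Subread 2.0.0 with featureCounts, and build mm10. The deposited values were whole-number counts of reads per gene over exons, not normalised. The annotation release, strand setting and treatment of multiply aligned reads were not given in the sources used here. Without molecular identifiers, duplicate reads could not be told from separate molecules.

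The genotypes were compared with edgeR 4.0.16 under R 4.3.3 (quasi-likelihood F-test, two-sided, TMM, filterByExpr, 2 surrogate variables from sva 3.50.0, Benjamini-Hochberg over all 15084 genes tested). The 92 spike-in rows held 0 counts and were left out. A call needed an adjusted p under 0.05, a fold change beyond 1.15 and a mean scaled count of at least 50. CPM values are TMM-scaled, and CPM per kb divides by the union exon length in GENCODE M21. The standard error is the log2 fold change divided by the square root of F. Alternatives were DESeq2 1.42.0, other covariates, scaling and filters, and leaving out libraries, and the procedure was tested on simulated data. The chi-square statistic between libraries of a genotype was at least 10.2 per gene, so none was a repeat of another.

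Samples were grouped by their labels, and lane was read from the names of the deposited count files. The 7 genes and the related lists were chosen with earlier results of these data known. Named are all 7 genes, called genes of the related lists, Ldha and Ldhb, Taz, and for each called member the 2 genes nearest in pattern. Some genes of the related lists are not reported here. Emb, Acat2, Slc16a4, Slc16a8, Slc16a11, Slc16a12, Slc16a13, Oxct2a and Oxct2b were named after their values were seen.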

Additional observations from a re-analysis of the deposited data

Results flagged for a closer look

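In groups of 4 hearts, a value was singled out when its gap to the nearest other value, divided by the whole range, exceeded the 95% critical value of Dixon for 4 values. Of 56 groups examined (the 7 genes and their transporter shares, the called genes of the related lists, Ldhb, Taz and the marker sums, each in both genotypes) 10 did, where chance gives about 1 in 20, or 2.80. None was a group of any of the 7 genes. Among the related genes, Aacs in TAZG197V reached 0.927 through TAZG197V 4, at 12.4 CPM against 6.07 to 6.53 in the other 3. Uncalled related genes other than Ldhb were not examined in this way. The other 9 were marker sums. In WT, red cell markers reached 0.987, neutrophil markers 0.945 and brain markers 0.976, in each case through WT 4. Endothelial markers reached 0.948 in WT through WT 3, and fibroblast markers 0.906 and adipocyte markers 0.848 through WT 2. In TAZG197V, macrophage markers reached 0.832 through TAZG197V 3, and adipocyte markers 0.960 and brain markers 0.991 through TAZG197V 4. These values have no test of a cause.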

How the results depend on the processing

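Slc16a7 kept its direction and call under all 18 alternatives, and Slc16a1 and Slc16a3 remained uncalled under all 18. Asking for a fold change of at least 1.5 gave 1843 called genes in place of 5060 and ended the call of Acat1 (-0.55). Bdh1 was not called without surrogate variables (0.81, edgeR adjusted p = 0.0858) or with lane as a covariate (0.82, 0.0944). With 1 library left out, Bdh1 ranged from 0.62 (without WT 4) to 1.25 (without WT 3), Oxct1 from -0.06 to 0.01 (without WT 3), and Bsg from 0.13 to 0.31 (without WT 3). Bsg was called without both number 4 libraries (0.23, edgeR adjusted p = 0.0274). Signs turned for uncalled genes: without both number 4 libraries, Acat2 went from 0.11 to -0.04 (-0.07 to 0.21 with 1 library left out) and Slc16a12 from -0.42 to 0.02. The related genes called numbered 5 to 9 over the alternatives, against 7, in fits that called 15.5 to 34.1% of all genes. The cause of these shifts was not tested.

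No label ties same-numbered hearts together. Their deviations from the group means correlated at 0.277, 0.0436, 0.28 and 0.416 for numbers 1 to 4, and those of differently numbered hearts at -0.464 to 0.317. Number 2 missed the 0.1 asked of every pair, so the numbers were not treated as pairing, although 3 of 4 passed it. With the number as a block, 4272 genes were called, and for Bdh1 the log2 fold change was 0.95 (edgeR adjusted p = 0.0221), and no call among the 7 genes changed, while Slc16a6 was not called (-0.27). The alternatives called 2 to 4 of the 7 genes, and 12.2 to 34.1% of all genes. Slc16a3 had the fewest counts of the 7 genes, 38 to 100 per library.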
